A study of Rattus norvegicus with 6 samples.

Results

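The genes described here encode the proteins of the large (60S) subunit of the cytosolic ribosome. They were taken from the deposited expression table by symbol: Rpl followed by a number, with or without an ending a, l, l1 or x, and Rplp0, Rplp1 and Rplp2. This gave 52 of the 22085 genes of the table. Of these, 8 end in l or l1, the usual mark of a paralog or a retrotransposed copy, and the other 44 are the standard subunit genes by name. All 52 had an Entrez identifier in the current RefSeq gene table.

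The large subunit joins amino acids into protein at its peptidyl transferase centre and lets the new chain out through an exit tunnel. Its proteins are made in the cytosol, carried into the nucleolus, assembled there on ribosomal RNA and exported, so a cell needs them in matched amounts. Their mRNAs begin with a 5' terminal oligopyrimidine (TOP) tract, an unbroken run of C and U at the cap, through which mTORC1 signalling and the protein Larp1 control their translation. Many of these genes have intronless processed copies elsewhere in mammalian genomes.

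RNA was sequenced from cells grown from rat amniotic fluid, taken on embryonic day 18.5 from pregnancies of a preeclampsia model and from control pregnancies. The cells, labelled as mesenchymal stem cells, were cultured in DMEM/F12 with fetal bovine serum and sequenced at passage 4. There were 3 preeclampsia and 3 control libraries, and the contrast asks how amniotic fluid cells of preeclamptic pregnancies differ from those of controls. The sources used here do not say how the model was induced, which strain was used or how many animals or fetuses a library holds, so p-values measure the spread between these libraries, which may be technical in part.

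The sequences around the annotated transcription start are shown because a TOP tract, if present, would be written there as a pyrimidine run. RefSeq promoter sequences (GRCr8) were matched by Entrez identifier for 43 of the 52 genes. A run of at least 8 C or T on the sense strand, reaching into the 20 bases on either side of the annotated start, was found in 28 of these 43 promoters (65.1%). By name, 27 of 35 standard genes had it (77.1%), against 1 of 8 copies (12.5%). Of all 19005 protein-coding promoters of the RefSeq table, 3858 had such a run (20.3%). The stretches below run 5' to 3' on the sense strand from 20 bases before the start to 24 bases after its first base, 45 bases in all, and capitals mark the longest pyrimidine run reaching into the 20 bases on either side, which can continue past the letters shown. The first 6 are genes whose values the results turn on, and the last 6 set standard genes and copies of the same family side by side.
Rplp0, chr12:46718366-46718410, minus strand: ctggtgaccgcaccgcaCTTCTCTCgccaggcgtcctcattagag
Rpl5, chr14:1995201-1995245, minus strand: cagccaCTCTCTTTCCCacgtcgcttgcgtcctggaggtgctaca
Rpl12, chr3:36661920-36661964, plus strand: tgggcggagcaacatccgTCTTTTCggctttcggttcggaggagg
Rpl34, chr2:221962259-221962303, minus strand: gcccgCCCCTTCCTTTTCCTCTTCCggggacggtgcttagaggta
Rpl4, chr8:73566457-73566501, plus strand: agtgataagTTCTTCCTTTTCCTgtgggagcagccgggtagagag
Rpl7l1, chr9:21695698-21695742, plus strand: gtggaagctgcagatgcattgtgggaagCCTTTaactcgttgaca
Rpl10, chrX:157205830-157205874, plus strand: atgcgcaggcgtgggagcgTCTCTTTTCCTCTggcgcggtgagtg
Rpl10l, chr6:90281958-90282002, minus strand: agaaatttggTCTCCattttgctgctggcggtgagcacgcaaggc
Rpl22, chr5:168117941-168117985, plus strand: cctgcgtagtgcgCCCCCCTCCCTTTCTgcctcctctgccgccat
Rpl22l1, chr2:113683176-113683220, plus strand: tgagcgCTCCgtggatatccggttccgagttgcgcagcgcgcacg
Rpl31, chr9:49143091-49143135, plus strand: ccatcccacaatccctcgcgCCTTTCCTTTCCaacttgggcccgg
Rpl31l1, chrX:96550195-96550239, plus strand: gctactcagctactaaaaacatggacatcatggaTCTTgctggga
The longest of these runs, 20 bases, is in Rpl34. The run of Rpl12 has 7 bases and so misses the minimum of 8.

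Other motifs were counted in the whole promoter window, 250 bases before to 50 bases after the start, on both strands. The ETS motif, written CCGGAAG or CTTCCGG, was in 13 of the 43 promoters (30.2%), against 11.2% of all promoters. Its second form begins with pyrimidines, so a match can overlap the run, as in Rpl34. The YY1 motif, AAGATGG or CCATCTT, was in 5 of 43 (11.6%, against 7.6% of all), and TATAAA or TTTATA was in 5 of 43 (11.6%, against 13.1% of all). A match describes letters in a window and not binding, no match says only that these letters are not in this window, and annotated starts can lie some bases away from the true ones.

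Total counts were 51942454, 59193961 and 48402185 in preeclampsia libraries 1 to 3 and 49598012, 51790772 and 51550576 in control libraries 1 to 3. Preeclampsia libraries 2 and 3 lay away from the others along the first principal component (33.3%), and control library 3 did along the second (22.7%). All 13 mesenchymal marker genes had counts in every library. They summed to 33988 to 47505 CPM (counts scaled to library size) in preeclampsia and 26129 to 33517 in control libraries. Of the 13, 10 had a positive and 3 a negative log2 fold change, between -0.78 and 2.62, and in 9 the groups overlapped. In the other 4 (30.8%) preeclampsia lay above control, against 7.25% of all tested genes. Pdgfra, Lum and Dcn, 3 of the 13, passed DESeq2 as higher in preeclampsia, against 1.03% of all tested genes. Thy1, Vim and Cxcl12 had log2 fold changes of 0.02, 0.15 and 0.17, with overlapping groups. The 17 macrophage and blood cell markers summed to 58.7, 1087 and 570 CPM in preeclampsia libraries 1 to 3, against 306, 258 and 55.5 in control libraries 1 to 3, with counts for 16 of 17 in every library. All 17 had a positive log2 fold change, with a median of 0.97 (51.7% of all tested genes were positive), and in all 17 the groups overlapped. The 20 markers of the G2 and M phases of the cell cycle summed to 2460, 528 and 544 CPM in preeclampsia and 969, 1232 and 506 in control libraries. Their log2 fold changes were positive for all 20, with a median of 0.44, and the groups overlapped in all 20. Of 14 epithelial markers, 11 were in the table and summed to 321 to 518 CPM in preeclampsia and 331 to 496 in control libraries. Of the 5 with enough counts to be tested, 4 had a negative log2 fold change, and Krt7 had a positive one (0.79). Krt8 and Krt18, 2 of the 5 tested, passed DESeq2 as lower in preeclampsia, against 2.33% of all tested genes called in either direction. The groups of Krt8 overlapped, with 0.560, 1.78 and 1.93 CPM in preeclampsia and 1.61, 51.0 and 11.3 CPM in control libraries 1 to 3. The 9 endothelial markers in the table summed to 19.3 to 32.5 CPM in preeclampsia and 21.7 to 24.4 CPM in control libraries. The 5 erythroid ones summed to at most 0.315 CPM in preeclampsia and 0.398 CPM in control libraries, with Alas2 and Epb42 at 0 in all 6. The part of these markers in the results below was not tested.

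Large subunit genes stood slightly and almost uniformly higher in preeclampsia cells, and no single gene passed edgeR's test over all genes. Of the 52 genes, 48 had enough counts to be tested, and 47 of those 48 had a positive log2 fold change (preeclampsia over control), against 51.7% of all 15776 tested genes. Their median log2 fold change was 0.39, with quartiles of 0.33 and 0.44, and the median of all tested genes was 0.01. In 34 of 48 genes (70.8%) all 3 preeclampsia libraries lay above all 3 control libraries, against 7.25% of all tested genes. None had all preeclampsia libraries below the controls, against 8.30% of all genes, and in 14 the groups overlapped. The genes were measured in the same 6 libraries, so these counts describe the set and are not independent observations. In bulk RNA, a shift in the kinds of cell present and a change in RNA per cell cannot be told apart.

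By edgeR's quasi-likelihood test with Benjamini-Hochberg adjustment, 0 of the 48 genes and 0 of all 15776 (0%) had an adjusted p under 0.05. The adjusted p of the 48 ran between 0.382 and 0.952. At an unadjusted p under 0.05, 31 of the 48 were higher and 0 lower in preeclampsia, against 4.13% of all tested genes that were higher and 9.19% in either direction. DESeq2, run on the same genes as an alternative, called 12 of the 48, all higher, against 1.03% of all tested genes called higher and 2.33% in either direction. When DESeq2 was run on all 21480 genes with a count, it called Rpl12 and Rpl5 among the large subunit genes, and 1.41% of all.

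**Figure D1:**
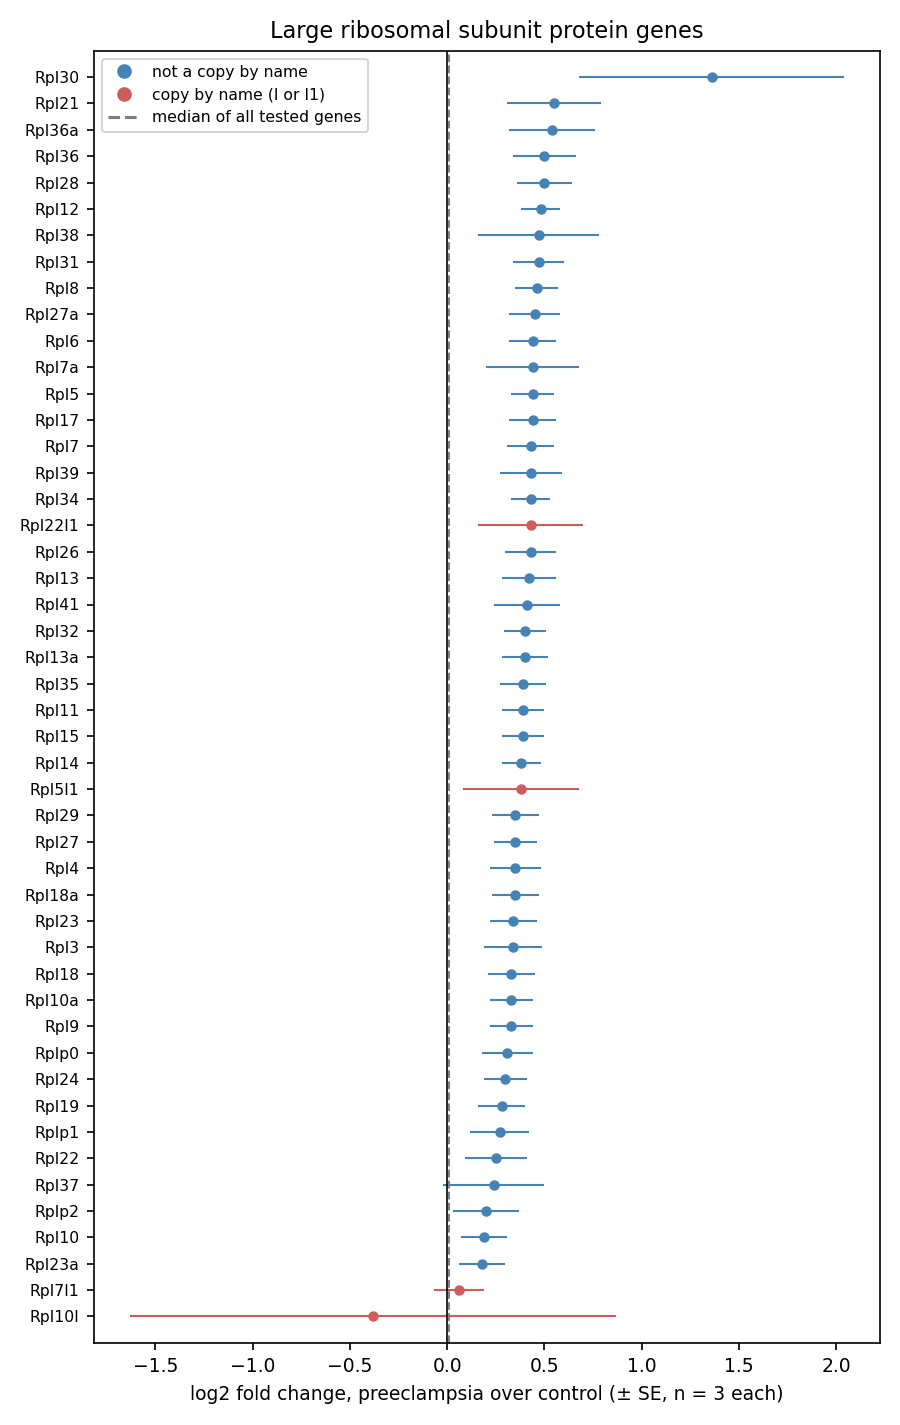
Log2 fold change of the 48 tested genes, preeclampsia over control, with its standard error (bars) from edgeR on 3 libraries per group, ordered by size, with the 4 tested copies by name in red and the median of all tested genes as a dashed line. All points but Rpl10l lie right of 0, most of them between 0.2 and 0.6.

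As a share of all counts, the 52 genes took 1.26%, 1.20% and 1.14% in preeclampsia libraries 1 to 3, against 0.850%, 0.977% and 1.00% in control libraries 1 to 3. The groups did not overlap, and control library 1 stood lowest. The means were 1.20% ± 0.0603 in preeclampsia and 0.943% ± 0.0812 in control libraries (SD, n = 3 each), a difference of 0.257 percentage points. The mean log2 CPM of the tested genes was 7.04 ± 0.071 in preeclampsia and 6.64 ± 0.16 in control libraries (SD, n = 3 each). The median log2 fold change of the set stayed close to its value with all libraries in the following fits. Neither fit dropped every library that stood apart along the principal components. Without preeclampsia libraries 2 and 3 the median log2 fold change was 0.39, with 46 of 49 genes positive (the lone preeclampsia library is then taken to vary like the controls), and without control library 3 and preeclampsia library 1 it was 0.38, with 46 of 48 positive.

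The library in which a gene peaked differed between genes. Among the preeclampsia libraries, library 2 was the highest for 27 of the 48 genes, including all stalk genes Rplp0, Rplp1 and Rplp2 and Rpl26, Rpl31, Rpl34, Rpl35, Rpl38 and Rpl41. Library 1 was the highest for 17, including Rpl3, Rpl4, Rpl5, Rpl7, Rpl11, Rpl12 and Rpl17, and library 3 for Rpl10l, Rpl13a, Rpl24 and Rpl5l1. Control library 1 was the lowest of all 6 libraries for 37 of the 48 genes. With it left out, the median log2 fold change was 0.34, 47 of 48 genes stayed positive, and 14 instead of 31 genes reached an unadjusted p under 0.05 by edgeR.

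**Figure D2:**
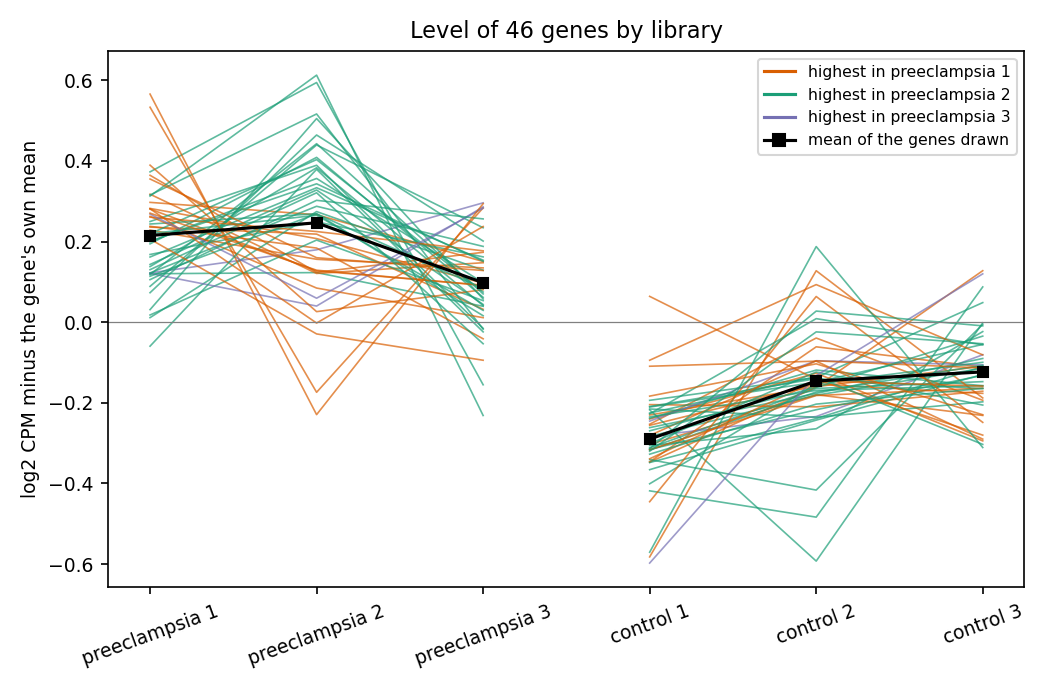
Log2 CPM of each tested gene in each library minus that gene's own mean over the 6 libraries, one line per gene, coloured by the preeclampsia library in which it was highest, with the mean of the genes drawn in black; Rpl10l and Rpl30, which vary most, are not drawn. The lines sit mostly above 0 in preeclampsia and below 0 in control libraries, with control 1 lowest on average.

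The stalk recruits the elongation factors to the ribosome, and Rplp0, Rplp1 and Rplp2 had smaller log2 fold changes than the median of the set. Rplp0, the protein on which the stalk is anchored, had 1431, 1593 and 1401 CPM in preeclampsia libraries 1 to 3, against 1097, 1182 and 1291 CPM in control libraries 1 to 3. Every preeclampsia library lay above every control library, the means being 1475 ± 103 and 1190 ± 97.3 CPM in preeclampsia and control (SD, n = 3 each). The log2 fold change was 0.31 (SE 0.13), which did not pass edgeR's quasi-likelihood test (Benjamini-Hochberg adjusted p = 0.556).

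The acidic stalk proteins, which bind Rplp0 in pairs, had overlapping groups. Rplp1 had 276, 315 and 243 CPM in preeclampsia libraries and 202, 248 and 243 CPM in control libraries, a log2 fold change of 0.27 (SE 0.15). Rplp2 had 56.3, 76.3 and 57.7 CPM in preeclampsia libraries and 47.2, 59.8 and 58.3 CPM in control libraries, a log2 fold change of 0.20 (SE 0.17). For both, preeclampsia library 2 was the highest and control library 1 the lowest. Without preeclampsia library 2 the log2 fold change was 0.17 for Rplp1 and 0.05 for Rplp2, and without control library 1 it was 0.18 for Rplp1 and 0.11 for Rplp2.

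Rpl12, which sits at the base of the stalk, had the smallest p of the set. It had 238, 233 and 215 CPM in preeclampsia libraries 1 to 3, against 157, 171 and 165 CPM in control libraries 1 to 3, so the groups did not overlap. The log2 fold change was 0.48 (SE 0.10), with an adjusted p of 0.382 by edgeR's quasi-likelihood test with Benjamini-Hochberg adjustment and 7.3e-04 by DESeq2.

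Rpl5 and Rpl11 form, with 5S ribosomal RNA, a particle that is built into the large subunit and that, when free, binds and inhibits the ubiquitin ligase Mdm2. Rpl5 had 534, 521 and 504 CPM in preeclampsia libraries 1 to 3, against 358, 393 and 398 CPM in control libraries 1 to 3. Rpl11 had 257, 244 and 226 CPM in preeclampsia libraries, against 177, 190 and 187 CPM in control libraries. Neither overlapped between the groups. The log2 fold changes were 0.44 (SE 0.11) for Rpl5 and 0.39 (SE 0.11) for Rpl11, with adjusted p of 0.433 and 0.452 by edgeR's quasi-likelihood test with Benjamini-Hochberg adjustment and 0.00206 and 0.0170 by DESeq2.

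Around the peptidyl transferase centre and the tRNA sites, Rpl3 and Rpl8 separated the groups and Rpl10 did not. Rpl3, an early-assembling protein that reaches towards the catalytic centre, had 804, 625 and 649 CPM in preeclampsia libraries, against 569, 574 and 502 CPM in control libraries, a log2 fold change of 0.34 (SE 0.15). Preeclampsia library 1 was the highest, and without it the log2 fold change of Rpl3 was 0.21, or 0.15 without control library 3 as well. Rpl8, one of the most conserved proteins of the subunit, had 385, 425 and 372 CPM in preeclampsia libraries, against 267, 291 and 299 CPM in control libraries. Its log2 fold change was 0.46 (SE 0.11), with an adjusted p of 0.435 by edgeR's quasi-likelihood test with Benjamini-Hochberg adjustment and 0.00798 by DESeq2. Rpl10, one of the last proteins to join the subunit before it becomes active, had 496, 497 and 469 CPM in preeclampsia libraries, against 399, 415 and 472 CPM in control libraries. Control library 3 lay above preeclampsia library 3, and the log2 fold change of Rpl10 was 0.19 (SE 0.12).

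Of 8 genes for proteins that line the exit tunnel or surround its mouth (Rpl4, Rpl17, Rpl22, Rpl23a, Rpl26, Rpl31, Rpl35 and Rpl39), all had positive log2 fold changes, with a median of 0.41. In 7 of the 8 (87.5%) the groups did not overlap, against 77.3% of the 44 standard large subunit genes and 7.25% of all tested genes. Rpl4, whose long loop narrows the tunnel, had 701, 576 and 680 CPM in preeclampsia libraries, against 508, 537 and 492 CPM in control libraries, a log2 fold change of 0.35 (SE 0.13). Rpl17 had 371, 314 and 325 CPM in preeclampsia libraries, against 244, 264 and 235 CPM in control libraries, a log2 fold change of 0.44 (SE 0.12), called by DESeq2 (adjusted p = 0.0297). Rpl31, at the tunnel mouth, had 147, 167 and 133 CPM in preeclampsia libraries, against 99.2, 107 and 117 CPM in control libraries, a log2 fold change of 0.47 (SE 0.13). In all of these every preeclampsia library was above every control library. Rpl39, a very small protein inside the tunnel, had 21.4, 26.8 and 20.7 CPM in preeclampsia libraries, against 16.0, 18.1 and 17.1 CPM in control libraries, again without overlap. Rpl23a, the docking site of the signal recognition particle, had the smallest log2 fold change of those without overlap, 0.18 (SE 0.12), with 160, 182 and 164 CPM in preeclampsia libraries and 135, 159 and 152 CPM in control libraries, and it was 0.12 without preeclampsia library 2 or without control library 1.

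Rpl19, Rpl24, Rpl30 and Rpl41 reach across to the small subunit and form bridges with it, and all but Rpl30 separated the groups. Rpl30 had the largest log2 fold change of the set, 1.36 (SE 0.68), and the largest standard error among the standard genes. It had 13.8, 60.2 and 55.0 CPM in preeclampsia libraries 1 to 3, against 8.69, 30.2 and 11.5 CPM in control libraries 1 to 3. Preeclampsia libraries 2 and 3 were high and preeclampsia library 1 lay below control library 2, and the log2 fold change of Rpl30 was 2.09 without control library 2 and -0.29 without preeclampsia libraries 2 and 3.

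The remaining genes called by DESeq2 encode proteins spread over the subunit. Rpl34 had 73.5, 82.8 and 73.1 CPM in preeclampsia libraries, against 56.6, 55.8 and 57.3 CPM in control libraries, a log2 fold change of 0.43 (SE 0.10). Rpl6 had 527, 604 and 585 CPM in preeclampsia libraries, against 419, 446 and 397 CPM in control libraries, a log2 fold change of 0.44 (SE 0.12). Rpl7 had 474, 414 and 405 CPM in preeclampsia libraries, against 293, 335 and 332 CPM in control libraries, a log2 fold change of 0.43 (SE 0.12). Each of these had its lowest preeclampsia library above its highest control library. Rpl14 had 242, 256 and 241 CPM in preeclampsia libraries and 177, 190 and 199 CPM in control libraries. Rpl15 had 369, 322 and 328 CPM in preeclampsia libraries and 257, 256 and 263 CPM in control libraries. The same separation held for both, with log2 fold changes of 0.38 and 0.39.

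Rpl13a, which in human cells also leaves the ribosome to repress inflammatory mRNAs, had 617, 642 and 696 CPM in preeclampsia libraries and 466, 482 and 536 CPM in control libraries. Rpl32 had 107, 120 and 112 CPM in preeclampsia libraries and 78.9, 87.2 and 91.3 CPM in control libraries. Neither overlapped, and both log2 fold changes were 0.40. By DESeq2 the adjusted p of Rpl13a, Rpl32 and Rpl7 lay between 0.0489 and 0.0498, and with DESeq2's filtering set at 0.1 these 3 were no longer called, leaving 9 of the 48, against 0.976% of all tested genes called higher and 2.22% in either direction at that setting.

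The next largest log2 fold changes after Rpl30 belonged to genes whose groups overlapped. Rpl21 had 78.3, 91.3 and 54.3 CPM in preeclampsia libraries, against 52.0, 40.1 and 60.4 CPM in control libraries, a log2 fold change of 0.55 (SE 0.24). Rpl36a had 30.1, 34.6 and 23.9 CPM in preeclampsia libraries, against 18.1, 17.3 and 25.7 CPM in control libraries, a log2 fold change of 0.54 (SE 0.22). In both, control library 3 lay above preeclampsia library 3. Over the 23 standard genes outside the stalk, 5S, catalytic, tunnel and bridge groups, log2 fold changes ran between 0.24 and 0.55, with a median of 0.40. In 18 of them (78.3%) the groups did not overlap, against 77.3% of the 44 standard large subunit genes and 7.25% of all tested genes. The lowest, 0.24, belongs to the row named Rpl37, which RefSeq now names as a copy, and the others lay at 0.33 or above.

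**Figure D3:**
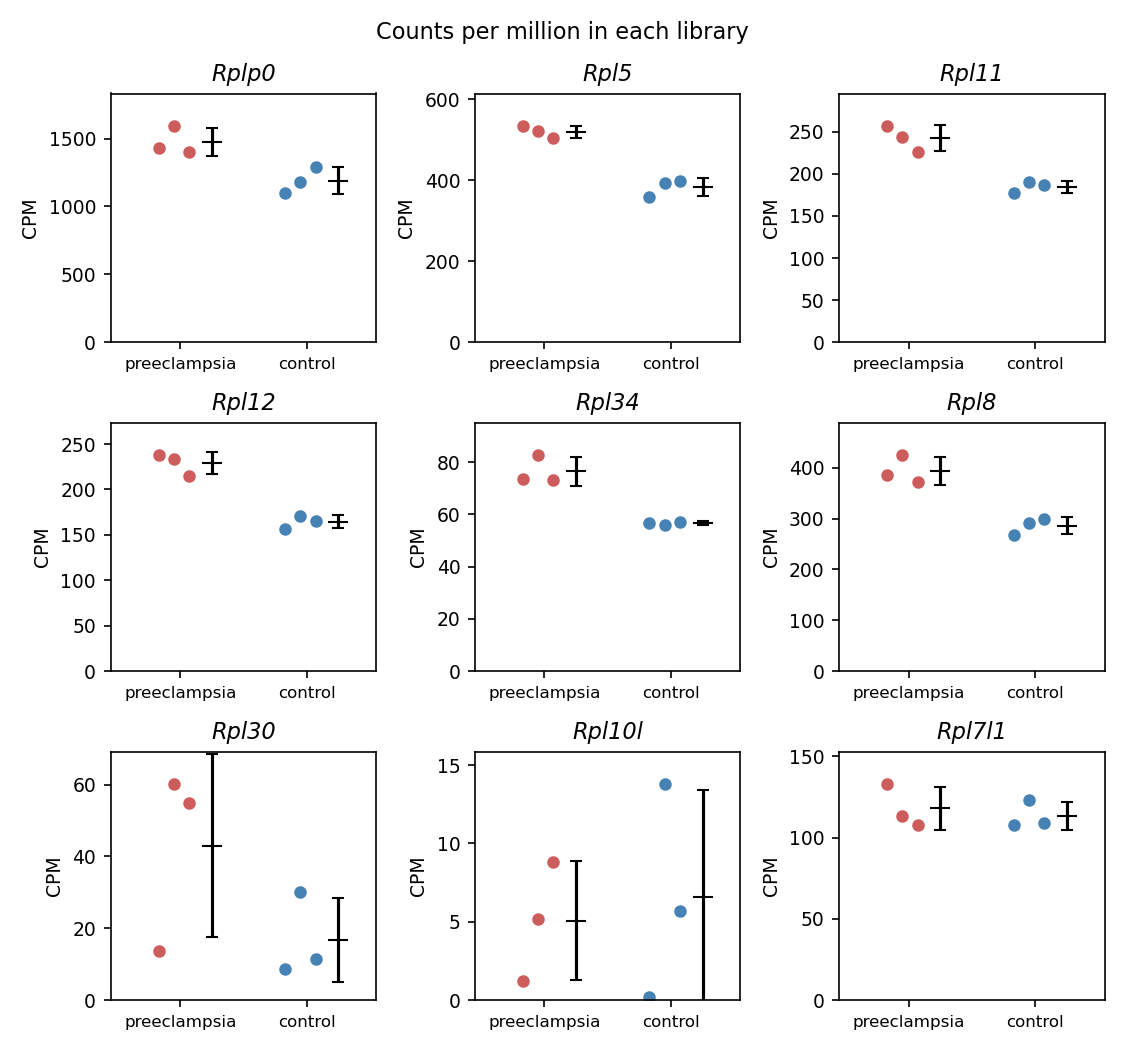
CPM of 9 genes in each library, preeclampsia in red and control in blue, points in the order of library numbers, with mean ± SD (n = 3 each) as bars beside them and axes starting at 0; the lower arm of the Rpl10l control bar passes below the axis. The points of Rplp0, Rpl5, Rpl11, Rpl12, Rpl34 and Rpl8 do not overlap between the groups, while those of Rpl30, Rpl10l and Rpl7l1 do.

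Of the 8 copies by name, 4 had enough counts to be tested, 3 of them with a positive log2 fold change, and in none did the groups separate. Among all tested genes, 51.7% were positive, and the groups separated with preeclampsia above control in 7.25% and below in 8.30%. With 4 genes, none separating does not set the copies apart from those shares. Rpl7l1, a homolog of Rpl7 known as a factor in large subunit assembly, had 133, 113 and 108 CPM in preeclampsia libraries, against 108, 123 and 109 CPM in control libraries, a log2 fold change of 0.06 (SE 0.13). Rpl22l1, a paralog whose expression Rpl22 represses in mouse, had 15.1, 9.25 and 12.7 CPM in preeclampsia libraries, against 6.97, 11.4 and 9.16 CPM in control libraries. Its log2 fold change was 0.43 (SE 0.27). Rpl22 itself had 38.1, 36.7 and 31.4 CPM in preeclampsia libraries, against 25.4, 28.9 and 35.3 CPM in control libraries, a log2 fold change of 0.25 (SE 0.16), so both partners overlapped between the groups. With single libraries left out, the log2 fold change ran between 0.26 (without preeclampsia library 1) and 0.62 (without control library 2) for Rpl22l1, and between 0.14 (without control library 1) and 0.39 (without control library 3) for Rpl22. The difference in log2 fold change between copies and standard genes was not tested.

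Rpl10l, known from mouse as a testis-expressed retrogene of Rpl10, was the only one of the 48 with a negative log2 fold change, -0.38 (SE 1.25). It had 1.23, 5.16 and 8.81 CPM in preeclampsia libraries, against 0.230, 13.8 and 5.67 CPM in control libraries, a spread far wider than the difference, and its sign changed with the processing. Rpl5l1 had 2.97, 2.57 and 3.00 CPM in preeclampsia libraries, against 1.63, 2.25 and 2.68 CPM in control libraries, a log2 fold change of 0.38 (SE 0.30), with control library 3 inside the preeclampsia range and a value of 0.21 without control library 1. The other 4 copies were too low to test. Rpl39l had 8, 0 and 0 counts in preeclampsia libraries and 18, 8 and 0 in control libraries, and Rpl3l, a muscle paralog of Rpl3, had 0, 4 and 0 in preeclampsia and 3, 0 and 0 in control libraries. Rpl30l1 had 2, 2 and 2 in preeclampsia and 2, 0 and 4 in control libraries, and Rpl31l1 had 5, 0 and 0 in preeclampsia and 0 in every control library.

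Symbols in the table differ from current RefSeq symbols for 3 of the 52 genes, Rpl10l, Rpl37 and Rpl39l. The row named Rpl37 is now Rpl37l1, a span of 359 bases, and had 3.19, 2.82 and 2.68 CPM in preeclampsia libraries, against 2.78, 2.41 and 2.19 CPM in control libraries. A row with a locus identifier is now Rpl37 and had 27.6, 31.5 and 24.9 CPM in preeclampsia libraries, against 17.0, 19.9 and 23.0 CPM in control libraries, with no overlap and a log2 fold change of 0.49 (SE 0.17). Rows that were outside the naming rule but are now Rpl37a and Rpl35a had log2 fold changes of 0.41 (SE 0.13) and -0.74 (SE 0.88). Current Rpl37a had 51.1, 54.7 and 45.5 CPM in preeclampsia libraries and 35.7, 36.8 and 41.5 CPM in control libraries, without overlap. Current Rpl35a was low, with 3.77, 0.402 and 0.545 CPM in preeclampsia libraries and 3.08, 1.80 and 3.00 CPM in control libraries. Its groups overlapped, and preeclampsia library 1 was the highest. Rpl36al, also outside the naming rule, had a log2 fold change of 0.05 (SE 0.17) with overlapping groups.

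Reads of these genes are hard to place, which limits what a level means. Each of the 44 standard genes had at least 1 named copy or pseudogene in RefSeq, between 1 for Rpl41 and 27 for Rpl9, with a median of 15. Near-identical copies can take or lend reads, and how multiply mapped reads were counted, and whether strand was used, the sources used here do not say. The length implied by the deposited values, the count divided by FPKM and by the library's total, was longer than the whole gene span for 19 of the 47 genes with an FPKM of at least 2 (40.4%), against 14.7% of small subunit genes and 5.59% of all genes. For Rpl12 the implied length was 12462 bases in a span of 2377, while for Rplp0 it was 499 bases in a span of 3270. Levels per length therefore give no firm order among the genes. By deposited FPKM the highest means were 2670 for Rplp0, 804 for Rpl6, 659 for Rpl4, 626 for Rpl5, 587 for Rpl8 and 516 for Rpl3.

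**Figure D4:**
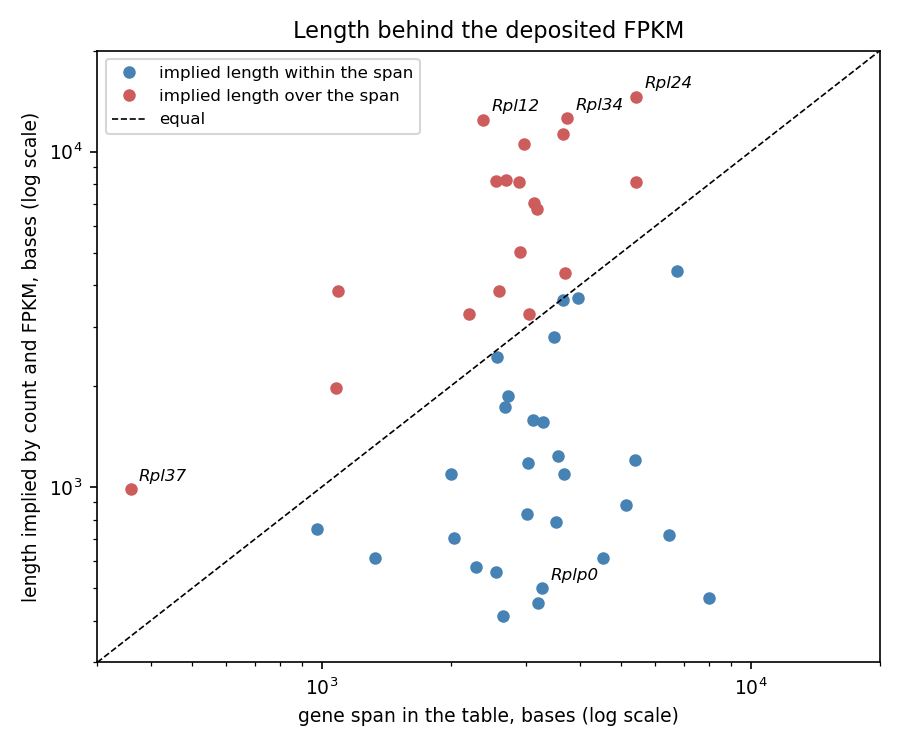
Length implied by the deposited count and FPKM against the genomic span of the gene, both in bases on log axes, for the large subunit genes with an FPKM of at least 2, with the line of equality. The points above the line, 19 of 47, have an implied length longer than the gene itself.

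The other lists of ribosomal genes ranged between values close to those of the large subunit and values near 0. Of 34 tested small subunit genes, 33 had a positive log2 fold change, with a median of 0.37. In 28 of them preeclampsia lay above control without overlap (82.4%, against 7.25% of all tested genes). DESeq2 called 6 as higher, Rps26 and Rps18 among them, against 1.03% of all tested genes called higher. With DESeq2 on all genes with a count, Rps26 was still called and Rps18 was not (adjusted p = 0.106). Rpsa, the small subunit protein also known as the laminin receptor, had 1355, 1523 and 1284 CPM in preeclampsia libraries, against 1083, 1096 and 1172 CPM in control libraries. The 46 genes of the mitochondrial large subunit, part of the ribosome that translates the few messages of the mitochondrial genome, had a median log2 fold change of 0.07, with 29 positive. Of these genes, Mrpl36 and Mrpl46 had preeclampsia above control without overlap, a smaller share than the 7.25% of all tested genes. The 62 genes for large subunit assembly factors were nearly evenly divided, 32 positive and 30 negative, with a median of 0.00. DESeq2 called 1 of the 62, a share near that of all tested genes (2.33%), and did not call it when run on all genes with a count (adjusted p = 0.116). It was Nop53, which is needed for 5.8S ribosomal RNA maturation, with 56.9, 66.0 and 68.8 CPM in preeclampsia libraries, against 44.5, 46.5 and 48.5 CPM in control libraries. The 25 genes of RNA polymerase I and the nucleolus had a median of 0.03.

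Other genes whose mRNAs carry a TOP tract had 18 of 20 positive log2 fold changes, a median of 0.26 and 11 with preeclampsia above control without overlap, against 51.7% positive and 7.25% without overlap among all tested genes. Eef1a1, the elongation factor that brings aminoacyl-tRNA to the ribosome, had 5977, 6772 and 6384 CPM in preeclampsia libraries, against 4996, 4450 and 5158 CPM in control libraries, a log2 fold change of 0.39. Eef2, the translocation factor that binds at the stalk, had 2444, 2695 and 2619 CPM in preeclampsia libraries, against 2053, 1864 and 2115 CPM in control libraries. Rack1, a scaffold on the small subunit, had 635, 640 and 607 CPM in preeclampsia libraries, against 469, 485 and 493 CPM in control libraries. None of these overlapped. Of the 20, Eef2 and Rack1 were the 2 called by DESeq2 (adjusted p of 0.0498 and 0.00122), against 1.03% of all tested genes called higher. Eef2 was no longer called by DESeq2 with filtering at 0.1 (adjusted p = 0.0526), and neither was called on all genes with a count (adjusted p of 0.181 for Eef2 and 0.0534 for Rack1). The 18 regulators of ribosomal protein genes had a median of 0.02, with 10 positive and 8 negative. Myc was at 0.03, Larp1 at -0.13 and Rps6, itself a small subunit gene, at 0.42. The list ran between -2.44 for Mycn and 1.12 for Mxd1, and neither passed edgeR's or DESeq2's adjusted threshold. Mycn was low, with 0.597, 0.105 and 0.734 CPM in preeclampsia and 1.26, 1.46 and 5.09 CPM in control libraries, without overlap. The groups of Mxd1 overlapped.

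**Figure D5:**
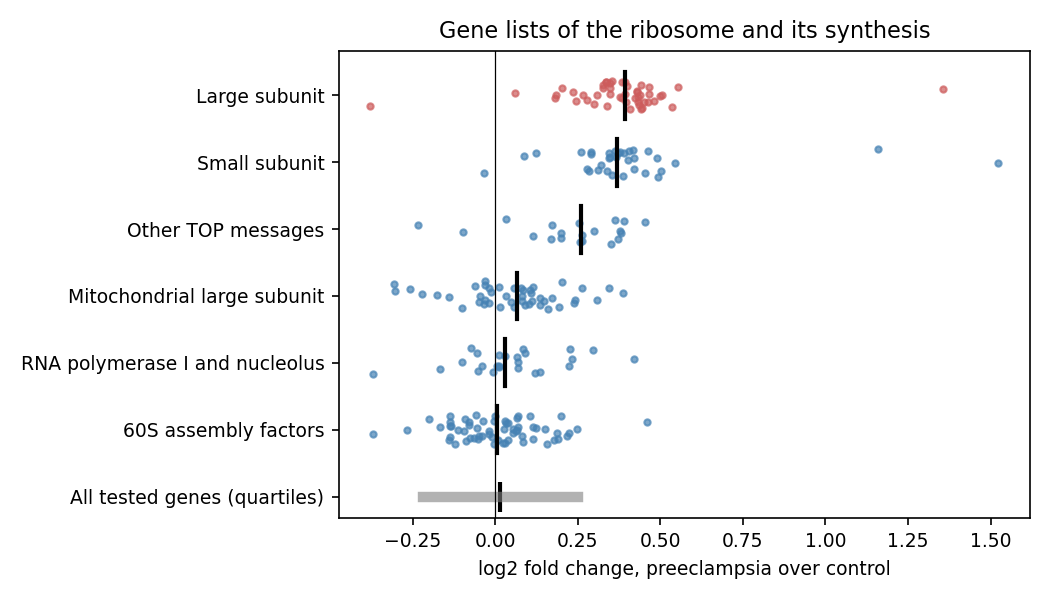
Log2 fold change, preeclampsia over control, of every tested gene of the large subunit, small subunit, other TOP, mitochondrial large subunit, RNA polymerase I and nucleolus, and assembly lists, one point per gene, with each list's median as a vertical bar and the quartiles of all tested genes in grey (height within a row carries no value). The large and small subunit points gather around 0.39 and 0.37, the other TOP genes around 0.26 and the mitochondrial and assembly genes near 0.

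Mdm2, the ubiquitin ligase that free Rpl5 and Rpl11 bind, had 150, 154 and 146 CPM in preeclampsia libraries, against 223, 204 and 354 CPM in control libraries, a log2 fold change of -0.80 (SE 0.22), with an adjusted p of 0.458 by edgeR's quasi-likelihood test with Benjamini-Hochberg adjustment. Cdkn1a, the cell cycle inhibitor, had 191, 250 and 214 CPM in preeclampsia libraries, against 311, 261 and 291 CPM in control libraries, and Ccng1 had 376, 394 and 526 CPM in preeclampsia libraries, against 656, 564 and 746 CPM in control libraries. All preeclampsia libraries lay below all control libraries for these 3 genes, and none passed edgeR's or DESeq2's adjusted threshold.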

How the data were processed

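RNA-seq libraries of cultured amniotic fluid cells, 3 per group, were analysed from 1 table deposited by the authors, which holds whole-number counts and FPKM values, per the file headers. Per the submitters' processing notes, the tools were StringTie 2.1.6, HISAT2 2.2.1, cutadapt 1.9 and FastQC, and no source used here names the genome build. RNA was selected on oligo(dT) beads and given unique molecular identifiers, per the labels' protocols; whether these were used in counting is not stated. Counts of 1 to 15 were multiples of 4 in 36.9% of cases, so low counts may come from coverage.

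After filterByExpr, counts were scaled by TMM, which the CPM in the text use, and edgeR 4.0.16 (R 4.3.3) gave quasi-likelihood tests with group as the only term, with adjustment over 15776 genes and a threshold of 0.05. DESeq2 1.42.0 and limma 3.58.1 were alternatives (limma on log2(FPKM + 1) or log2(FPKM + 0.1), which understates changes of low genes), as were other scalings, no filter, a replicate block and each library left out. Over all genes the coefficient of biological variation was 0.418 and log2 fold changes had a median standard error of 0.263. No 2 libraries were duplicates (smallest chi-square per degree of freedom 139.8). The fit was tested on simulated data.

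The set, the lists and the tests were chosen with earlier results of these data known, and the role groups after the values were seen. Genes named were the 6 with the highest FPKM, the 4 smallest p in each direction, the 3 largest and 3 smallest fold changes, the stalk and 5S genes, copies by name with their parents, those called by any tool, and Mdm2, Myc, Larp1 and Rpl36al. Some other genes of the lists are not reported here. Other genes of the lists, such as Cdkn1a, were named after their values were seen, where not among the 2 highest by FPKM. Sequences are from RefSeq promoter tables (GRCr8).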

Additional observations from a re-analysis of the deposited data

How the results depend on the processing

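The number of large subunit genes higher in preeclampsia and their median log2 fold change stayed close to the values given under the 19 alternatives run for each, the median between 0.33 and 0.42. The median of all tested genes lay between -0.002 and 0.025 under the scalings run. Calls depended on the tool. Over all genes, edgeR called 0, DESeq2 368, DESeq2 with filtering at 0.1 350, DESeq2 on all genes with a count 302, limma on log2(FPKM + 1) without a filter 1, and edgeR without control library 3 and preeclampsia library 1 called 3. Leaving out 1 library gave between 0 and 2 calls. Of the large subunit genes, DESeq2 called 12, 9 and 2 under those settings, and the cause of the difference between tools was not tested. The share of counts differed by 0.257 percentage points and the share of summed FPKM by 0.491, with 0.211 to 0.287 for counts when 1 library was left out.

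Rpl10l changed sign, to 0.17 in limma on log2(FPKM + 0.1), 0.45 with the replicate block, 0.77 without control library 2 and 0.08 without preeclampsia library 1, with -1.04 to 0.77 over all single libraries left out. Rpl7l1 was -0.04 without preeclampsia library 1 and -0.06 without that library and control library 3 (-0.04 to 0.13 with single libraries left out), and Rpl30 was -0.29 without preeclampsia libraries 2 and 3; the cause was not tested.

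The labels name no pairing of libraries. Deviations of same-numbered libraries from their group means had correlations of 0.048, 0.041 and 0.01, with 2 of 3 numbers best matched to their own. With 3 libraries per group, these correlations cannot decide whether the libraries were paired. With the replicate number as a block, 0 genes were called, all 48 large subunit genes were positive, and their median was 0.40. The settings without preeclampsia libraries 2 and 3, without control library 3 and preeclampsia library 1, and with DESeq2 on all genes or with filtering at 0.1 were chosen after seeing the data. The 4 untested copies had at most 18 counts in a library, and differences in them were not detectable at this depth.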
